A study of Macaca mulatta with 33 samples.

Results

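The comparison asked what a mother's western-style diet left in the liver of offspring that ate a control diet themselves after weaning. It set 10 livers labelled WSD/CD against 10 labelled CD/CD, which are 20 of the 33 livers in the study, chosen by their group labels and described across all genes. In WSD/CD the mother was fed a diet of western style (WSD) through pregnancy and nursing, and the offspring was weaned to the control diet (CD). In CD/CD both mother and offspring ate the control diet. All animals were juvenile macaques of 3 years. The design text calls them Japanese macaques, while the organism field names Macaca mulatta, the rhesus macaque. Each library came from 1 animal, no genotype is stated, and sex, kinship and collection dates are not among the labels, so p-values treat the animals as unrelated. Liver pieces were sequenced whole, so fewer cells of a type and less RNA per cell cannot be told apart in any value given here.

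The liver's hepatocytes make most plasma proteins, burn fatty acids in mitochondria, package fat into lipoproteins, make bile acids and detoxify ammonia. Stellate cells lie beside the sinusoids, the liver's capillaries, store vitamin A in the healthy organ, and are its main source of collagen when it scars. Diet-related fatty liver disease combines fat stored in hepatocytes with, in some animals and people, inflammation and scarring, and a mother's diet during pregnancy has been studied as an early influence on it.

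In WSD/CD livers, genes of hepatocyte function mostly stood lower than in CD/CD livers, among them genes for secreted plasma proteins, fatty acid oxidation, bile acid transport and the nuclear subunits of the respiratory chain. Transcripts of the mitochondrial genome and genes of stellate cells and collagen mostly stood higher. No gene passed an adjusted p under 0.05 in limma's test of the 20 libraries, and the difference was carried unevenly by the WSD/CD animals. Values are FPKM as the authors deposited them, a fragment count scaled by transcript length and by the mapped fragments of the library, and fold changes are of log2(FPKM + 1).

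The WSD/CD libraries were less alike than the CD/CD libraries. The median gene had an SD of 0.397 on the log2(FPKM + 1) scale among the WSD/CD libraries and 0.291 among the CD/CD libraries. Transcripts of the mitochondrial genome took 2.95%, 6.94%, 5.06%, 1.43%, 1.95%, 15.78%, 11.50%, 1.98%, 16.08% and 7.58% of summed FPKM in WSD/CD replicates 1 to 10, against a lowest, median and highest of 1.33%, 2.19% and 3.46% in CD/CD. Replicates 2, 3, 6, 7, 9 and 10 of WSD/CD lay above every CD/CD library, and the other WSD/CD libraries lay within the CD/CD range. The group difference was 4.78 percentage points (permutation p = 0.00952, two-sided, 100000 resamples). COX3, a gene of cytochrome c oxidase, made up most of the share in the libraries where it was highest. The 5 animals whose numbers exceed 34000, WSD/CD replicates 6 to 10, had no counterpart in CD/CD, and the labels do not say what the number stands for. Maternal diet and that number range cannot be told apart among them. Without these 5 animals the difference in mitochondrial share was 1.32 points (5 against 10 libraries, permutation p = 0.143). All 5 of these animals had a mean log2 level of Y-linked genes above 1, against 6 of 10 in WSD/CD as a whole and 4 of 10 in CD/CD. Sex entered the tests only through the Y-linked level as a covariate. With it 0 genes passed an adjusted p under 0.05, as in the fit without it, so that count says nothing about sex. Genes at an unadjusted p under 0.05 in limma's fit numbered 2701 with the covariate and 3293 without. The part of sex in the results was not tested further. Detected genes, those above 0 FPKM, numbered 15519 to 17180 per library. The table gives no read counts, and a rough relative depth taken from the lowest values was 1.02 ± 0.167 in WSD/CD and 1.07 ± 0.373 in CD/CD (SD, n = 10 each).

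**Figure D1:**
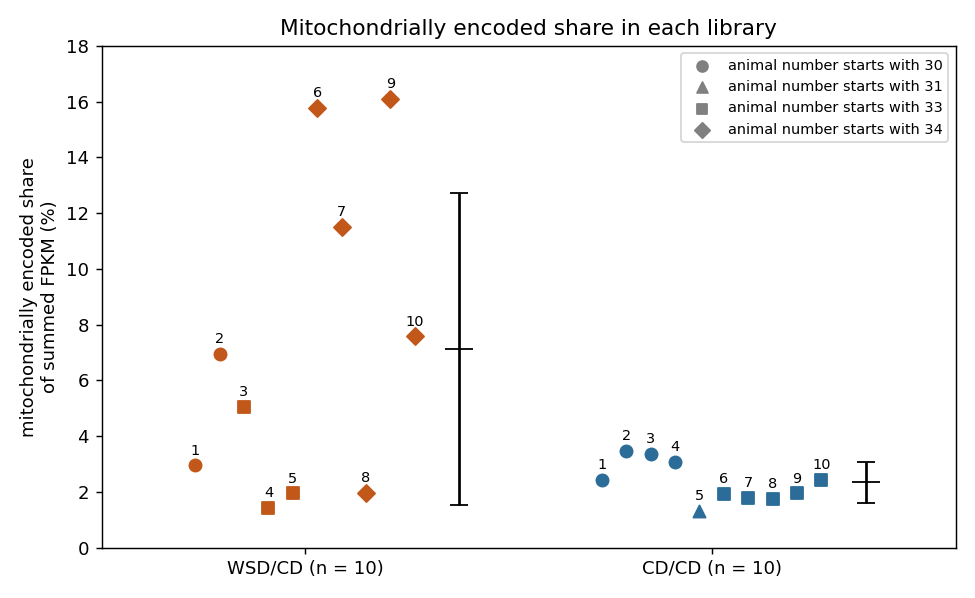
Share of summed FPKM, in percent, taken by transcripts of the mitochondrial genome, with 1 point for each WSD/CD library on the left and each CD/CD library on the right; the marker shape gives the leading digits of the animal number. WSD/CD replicates 6, 7 and 9 reach 15.78%, 11.50% and 16.08%, and the highest CD/CD library reaches 3.46%.

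Every library had the transcripts of a liver. SERPINA1, which encodes the hepatocyte protein alpha-1-antitrypsin, had at least 2464 FPKM in every WSD/CD library and at least 13746 FPKM in every CD/CD library. Markers of pancreas, gut and gallbladder summed to 0.365 to 2.95 FPKM in WSD/CD and 0.579 to 2.86 FPKM in CD/CD, with CELA3B, CPA1, FABP2, PNLIP, PRSS1 and TFF1 at 0 in all 20 libraries. Markers of red blood cells summed to 0.508 to 4.64 FPKM in WSD/CD and 0.202 to 2.44 FPKM in CD/CD.

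Among 12362 genes tested, 8864 had a negative log2 fold change and 3498 a positive one, with a median of -0.15. After scaling by the median of ratios, which removes a shift shared by most genes, that median was -0.01. At an unadjusted p under 0.05, called nominal below, 590 genes (4.77% of those tested) were higher and 2703 (21.9%) lower in WSD/CD. These 2 percentages are the background for every count of list members below, and the excess of lower genes among them depended on the scaling. Nominal genes numbered 1314 higher (10.6%) and 1391 lower (11.3%) after median-of-ratios scaling, 1185 and 1360 after rescaling without mitochondrial transcripts, and 1298 and 1359 after quantile normalization. The smallest adjusted p was 0.0631, shared by 32 genes, and 1119 genes had an adjusted p under 0.1, 212 of them higher and 907 lower. Median-of-ratios scaling gave 20 genes higher (0.162%) and 19 lower (0.154%) at an adjusted p under 0.05. A fit to all 33 livers, in which the 4 diet groups share 1 estimate of the spread, gave 194 higher (1.57%) and 1023 lower (8.28%), and all 1217 were nominal in the 20-library fit. WSD/CD had the widest spread, with a median SD of 0.397 against 0.268 to 0.291 in the other groups. The shared estimate therefore tends to understate the error of this comparison, and the larger count is not the firmer one. Without animals numbered above 34000, 1 gene was higher (0.00809%) and 0 lower. In limma's fit to the 20 libraries, leaving out WSD/CD replicate 1, 4, 5 or 8 gave 188, 756, 281 and 874 genes at an adjusted p under 0.05, and leaving out any other library gave 0.

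**Figure D2:**
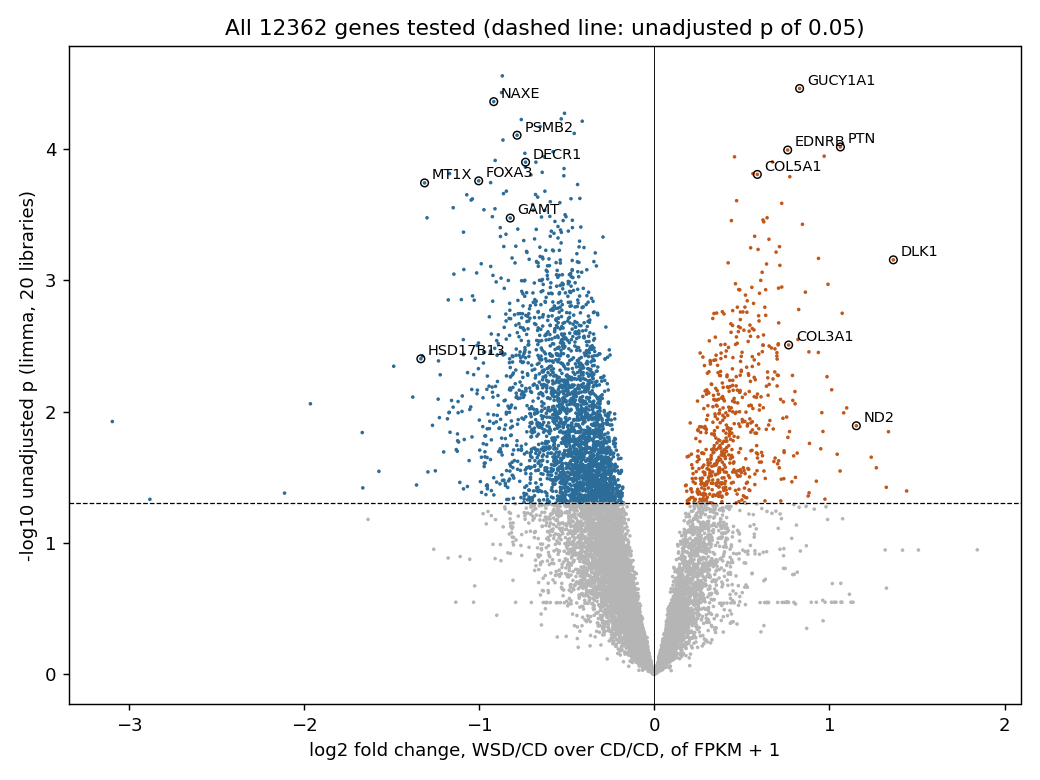
Each point is a gene, placed by its log2 fold change of FPKM + 1 (WSD/CD over CD/CD) and by -log10 of the unadjusted limma p; coloured points lie above the dashed line at an unadjusted p of 0.05. Of the coloured genes 590 lie to the right and 2703 to the left.

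The genes with the smallest p among those standing higher in WSD/CD included several known from stellate cells, vessels and matrix. GUCY1A1 (ENSMMUG00000023244), a subunit of the nitric oxide receptor guanylate cyclase, had 3.65, 8.89, 6.90, 6.17, 4.77, 9.07, 10.96, 4.85, 10.98 and 9.05 FPKM in WSD/CD replicates 1 to 10, against a lowest, median and highest of 2.86, 3.50 and 5.30 FPKM in CD/CD. Its log2 fold change was 0.83 ± 0.16 (SE, adjusted p = 0.0631). All 10 WSD/CD libraries were above the CD/CD mean and 7 were above the highest CD/CD library, which was set by replicate 8. PTN, the growth factor pleiotrophin, had a lowest, median and highest of 4.05, 9.55 and 18.8 FPKM in WSD/CD and 2.03, 3.99 and 7.46 FPKM in CD/CD (log2 fold change 1.06 ± 0.224 SE, adjusted p = 0.0631). OGN, the small matrix proteoglycan osteoglycin, had 3.09, 5.88 and 11.9 FPKM in WSD/CD and 0.867, 2.67 and 6.31 FPKM in CD/CD (0.97 ± 0.207 SE, adjusted p = 0.0631). EDNRB, an endothelin receptor, had 15.1, 23.9 and 38.2 FPKM in WSD/CD and 10.9, 13.6 and 20.2 FPKM in CD/CD (0.76 ± 0.161 SE, adjusted p = 0.0631). The PTN and EDNRB ranges overlapped between groups, with 8 and 7 WSD/CD libraries above every CD/CD library.

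The other genes of this set were the signalling ligands BMP5 (log2 fold change 0.77) and ANGPTL2 (0.67), the nuclear kinase HIPK1 (0.73), the phosphatase CDC14A (0.56), the adhesion protein KIRREL1 (0.46), the caveola protein CAVIN1 (0.64), the zinc finger gene ZNF608 (0.47) and the collagen chain COL5A1 (0.59). ANGPTL2 was above every CD/CD library in 9 of 10 WSD/CD livers, at 2.48 to 7.502 FPKM against 1.67 to 3.53 FPKM in CD/CD. After median-of-ratios scaling 11 of the 12 genes passed an adjusted p under 0.05, and in the 33-library fit all 12 did. Among animals numbered up to 34000, all 12 kept a positive log2 fold change, from 0.31 for KIRREL1 to 0.66 for OGN. The 12 were picked by p in these same libraries, so none of these counts is independent support.

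DLK1 (ENSMMUG00000020038), an imprinted gene of the fetal liver that is normally low after birth, had the largest positive log2 fold change among the genes given by library here. It had 8.05, 15.8, 11.1, 16.7, 15.1, 14.2, 28.96, 29.4, 69.2 and 26.5 FPKM in WSD/CD replicates 1 to 10. In CD/CD it had 5.12, 6.91, 8.84, 4.84, 26.9, 2.18, 7.67, 9.30, 3.81 and 9.23 FPKM. Its log2 fold change was 1.37 ± 0.346 (SE, adjusted p = 0.0700). In CD/CD only replicate 5 stood above 10 FPKM, and in WSD/CD only replicate 1 stood below it. With the animals above 34000 left out, the log2 fold change of DLK1 was 0.80, within number range 30 it was 0.76, and within range 33 it was 1.16.

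No gene lay higher in every WSD/CD library than in every CD/CD library, and 9 genes (0.0728%) lay lower in every one. GAMT (ENSMMUG00000003046), the enzyme of the last step of creatine synthesis, had a lowest, median and highest of 25.04, 71.5 and 89.6 FPKM in WSD/CD and 93.8, 115 and 126 FPKM in CD/CD (log2 fold change -0.82 ± 0.194 SE, adjusted p = 0.0636). NAXE (ENSMMUG00000002623), which repairs hydrated NADH and NADPH, had 8.38, 22.8 and 32.3 FPKM in WSD/CD and 33.7, 38.7 and 47.0 FPKM in CD/CD (-0.92 ± 0.181 SE, adjusted p = 0.0631). The highest WSD/CD library for NAXE thus stood just under the lowest CD/CD library. POLR3K, a subunit of RNA polymerase III, had 1.28, 3.18 and 4.66 FPKM in WSD/CD and 4.92, 5.47 and 10.51 FPKM in CD/CD (-0.87 ± 0.17 SE, adjusted p = 0.0631). HINT1, a purine phosphoramidase, and RPL9, a protein of the large ribosomal subunit, had log2 fold changes of -0.58 and -0.57, and TMEM203, a membrane protein of the endoplasmic reticulum, had -0.58. The highest WSD/CD values of HINT1 and RPL9, 148 and 43.2 FPKM, lay close to the lowest CD/CD values of 148 and 43.8 FPKM. Of the other genes without overlap, CYP2D6 belongs to a family with close copies that can share reads, so its value is uncertain, and the rest have no symbol. In the 15 libraries without animals above 34000, the log2 fold changes were -0.51 for GAMT, -0.62 for NAXE and -0.61 for POLR3K.

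The remaining genes with the smallest p among those standing lower covered several household tasks of the cell. PSMB2, a core subunit of the proteasome, had 3.11, 4.38 and 8.92 FPKM in WSD/CD and 5.63, 9.07 and 12.3 FPKM in CD/CD (log2 fold change -0.78 ± 0.162 SE, adjusted p = 0.0631). PGLS, an enzyme of the pentose phosphate pathway, had 1.96, 3.81 and 7.56 FPKM in WSD/CD and 4.88, 7.86 and 11.4 FPKM in CD/CD (-0.86 ± 0.18 SE, adjusted p = 0.0631). AIFM2, which reduces ubiquinone and protects lipids from oxidation, had 2.39, 5.28 and 6.72 FPKM in WSD/CD and 6.59, 7.93 and 13.7 FPKM in CD/CD (-0.74 ± 0.157 SE, adjusted p = 0.0631). For all 3 genes each of the 10 WSD/CD libraries lay below the CD/CD mean. COMMD1, a regulator of copper export, had a log2 fold change of -0.65, and SSNA1, a protein of microtubules and centrosomes, -0.76. PGAP3, which remodels lipid anchors of surface proteins, had -0.53, PTGES2, a prostaglandin E synthase, -0.46, and MYG1, a nuclease, -0.41, while PRICKLE4, of a planar polarity gene family, had -0.51. Of the 12 genes with the smallest p on the lower side, which include NAXE, POLR3K and TMEM203, 8 passed an adjusted p under 0.05 after median-of-ratios scaling and 12 in the 33-library fit. They too were picked by p in the same libraries, so these counts are not independent support.

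**Figure D3:**
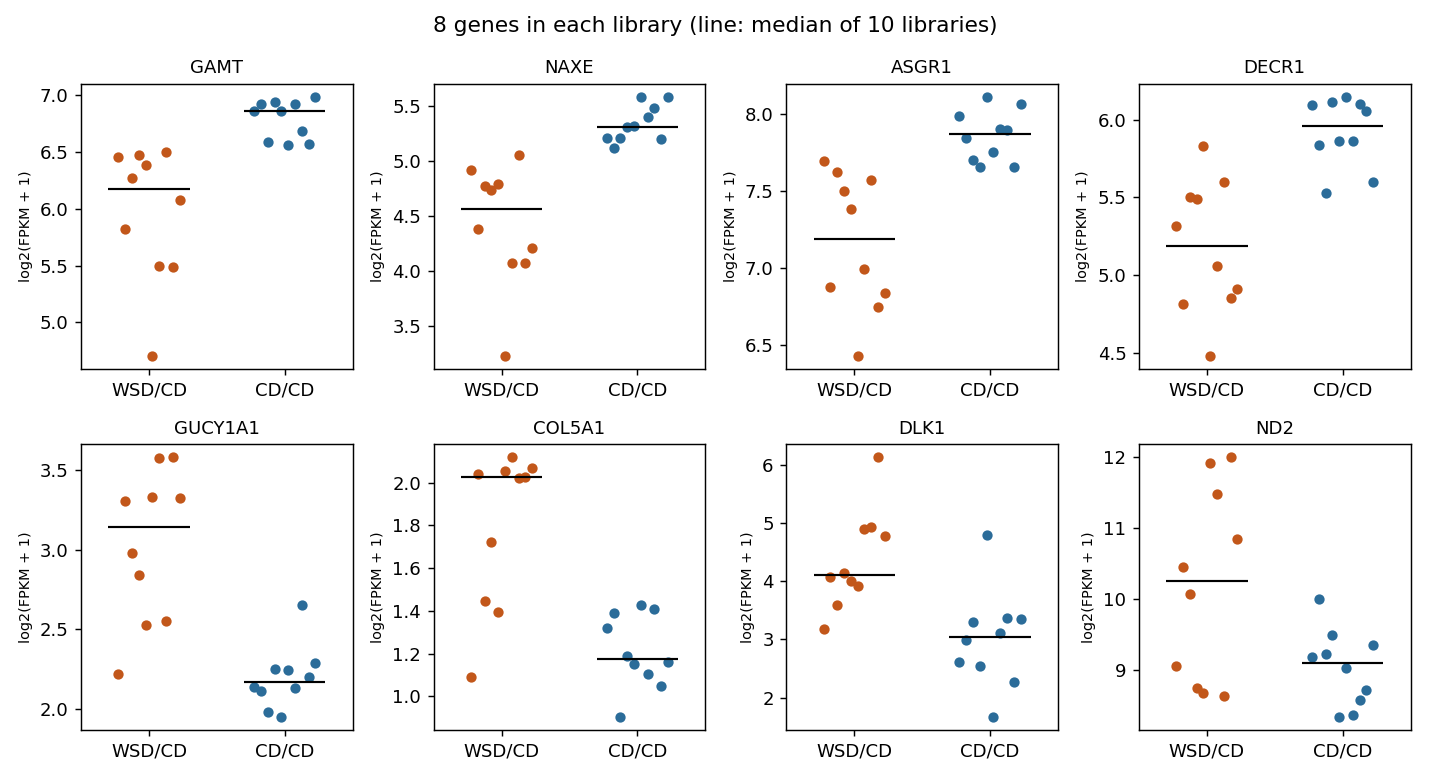
log2(FPKM + 1) of 8 genes in every WSD/CD library (left in each panel) and every CD/CD library (right), with the group median as a line. GAMT and NAXE do not overlap between groups, GUCY1A1 and COL5A1 stand higher in most WSD/CD libraries, and ND2 is spread more widely in WSD/CD than in CD/CD.

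Among the largest nominal differences, MT1X, a zinc-binding metallothionein, had 8.63, 24.4 and 79.3 FPKM in WSD/CD and 48.1, 58.2 and 124 FPKM in CD/CD (log2 fold change -1.31 ± 0.292 SE, adjusted p = 0.0636). Below every CD/CD library lay 9 of the 10 WSD/CD libraries, and replicate 1 was the exception. Metallothionein genes are near copies of each other, so reads may be shared among them. HSD17B13 (ENSMMUG00000019040), an enzyme of hepatocyte lipid droplets, had 28.5, 15.3, 15.3, 52.0, 43.1, 3.45, 7.91, 48.5, 3.97 and 10.4 FPKM in WSD/CD replicates 1 to 10, against a lowest, median and highest of 21.1, 41.4 and 79.6 FPKM in CD/CD (-1.33 ± 0.414 SE, adjusted p = 0.0822). Replicates 6, 7 and 9 were the lowest, and replicates 4, 5 and 8 stood at the CD/CD level. GUCA2B, a guanylate cyclase ligand known from the gut, had 0, 3.85 and 13.5 FPKM in WSD/CD and 3.38, 13.99 and 33.99 FPKM in CD/CD, below the CD/CD mean in all 10 WSD/CD libraries (-1.32 ± 0.409 SE, adjusted p = 0.0811). On the higher side, FILIP1L, a protein linked to the actin cytoskeleton, had 5.25, 11.5 and 38.1 FPKM in WSD/CD and 1.68, 4.63 and 19.04 FPKM in CD/CD (1.01 ± 0.339 SE, adjusted p = 0.0932).

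The respiratory chain is built from subunits of both genomes, and the 2 sets stood in opposite directions. Of 12 tested genes of the mitochondrial genome 8 were nominally higher and 0 lower, and their log2 fold changes had a median of 0.88. ND2, a subunit of complex I, had 535, 1400.4, 1071, 432, 412, 3841, 2845, 399, 4071 and 1831 FPKM in WSD/CD replicates 1 to 10, against a lowest, median and highest of 325, 551 and 1029 FPKM in CD/CD (1.15 ± 0.426 SE, adjusted p = 0.110). COX1, a subunit of cytochrome c oxidase, had 111, 279 and 622 FPKM in WSD/CD and 85.3, 117 and 203 FPKM in CD/CD (1.07 ± 0.302 SE, adjusted p = 0.0752). COX3, of the same enzyme, reached 49161 FPKM in WSD/CD, against at most 11159 FPKM in CD/CD. The genes of the mitochondrial genome together summed to at most 55824 FPKM in WSD/CD and 12915 FPKM in CD/CD. In the libraries where COX3 was highest, the mitochondrial share was therefore mostly COX3. ND2, COX1 and COX3 each exceeded every CD/CD library in 6 WSD/CD livers. ND4L was listed at 0 in all 20 libraries. Without animals numbered above 34000 the median of the 12 genes was 0.21.

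Nuclear genes of complex I stood the other way, with 19 of 30 nominally lower, 0 higher and a median of -0.42. NDUFV1, which binds NADH, had 22.2, 42.2 and 64.0 FPKM in WSD/CD and 56.9, 65.5 and 78.1 FPKM in CD/CD (log2 fold change -0.65 ± 0.162 SE, adjusted p = 0.0695). NDUFC2 and NDUFS3, further subunits, had -0.68 and -0.55. In 8 WSD/CD livers the list's median lay below every CD/CD liver, and in 5 the median of all genes tested did so too. Of 33 nuclear genes of complexes II to V 16 were nominally lower and 0 higher, with a median of -0.42. ATP5MC2, a ring subunit of ATP synthase, had 14.1, 26.05 and 37.3 FPKM in WSD/CD and 34.8, 41.8 and 49.4 FPKM in CD/CD (-0.68 ± 0.154 SE, adjusted p = 0.0636). ATP5F1C, from the stalk of the same enzyme, had -0.64, SDHB of complex II -0.55 and COX8A of complex IV -0.69, while ATP5PF, a coupling subunit, had 0.37 (adjusted p = 0.197). Mitochondrial ribosomal proteins had 16 of 27 nominally lower, 0 higher and a median of -0.32, with MRPL24 at -0.78 and MRPL13 at -0.55. POLRMT, the mitochondrial RNA polymerase, had 5.62, 9.08 and 13.7 FPKM in WSD/CD and 11.05, 12.6 and 15.03 FPKM in CD/CD (-0.48 ± 0.137 SE, adjusted p = 0.0752), and the transcription factor TFB2M had -0.33. The list of mitochondrial RNA and DNA maintenance that holds both had 5 of 15 nominally lower, 0 higher and a median of -0.24. Among animals numbered up to 34000, the medians were -0.23 for complex I, -0.13 for complexes II to V and -0.16 for mitochondrial ribosomal proteins. After median-of-ratios scaling of all 20 libraries they were -0.25, -0.23 and -0.16, and -0.09 for the maintenance list.

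Genes that mark hepatocytes mostly stood lower too. Of 17 tested secreted proteins 13 were nominally lower and 0 higher, with a median log2 fold change of -0.71, or -0.52 after median-of-ratios scaling. SERPINA1 had 2464, 9792 and 18340.1 FPKM in WSD/CD and 13746, 16526 and 19007 FPKM in CD/CD (-0.96 ± 0.32 SE, adjusted p = 0.0931). FETUB and AHSG, the fetuins, had -1.23 and -1.10, and APOH, which binds phospholipids in plasma, -0.71. The list's summed level was 9634, 33072 and 52479 FPKM (lowest, median and highest) in WSD/CD and 39293, 49159 and 54801 FPKM in CD/CD, with none of its genes at 0 in all libraries. Relative to the CD/CD mean the list's median per library was -2.31 in WSD/CD replicate 6, -1.64 in replicate 9 and -1.45 in replicate 7, while replicates 4, 5 and 8 had 0.18, 0.15 and 0.03. The secreted proteins thus ran along the same animals as the mitochondrial share. With the animals above 34000 left out, the median was -0.22.

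Of 12 surface receptors and enzymes of hepatocytes 7 were nominally lower and 0 higher, with a median of -0.71 and, without animals numbered above 34000, of -0.15. ASGR1, the asialoglycoprotein receptor that clears aged plasma proteins, had 85.0, 146 and 206 FPKM in WSD/CD and 200.1, 232 and 276 FPKM in CD/CD (log2 fold change -0.69 ± 0.161 SE, adjusted p = 0.0636). It lay below every CD/CD library in 9 of 10 WSD/CD livers. Hepatocyte transcription factors had 4 of 14 nominally lower, 0 higher and a median of -0.37, which was 0.01 without animals numbered above 34000. Over all genes tested 21.9% were nominally lower, so this count alone did not set the transcription factors apart. FOXA3 had 2.24, 4.94 and 11.9 FPKM in WSD/CD and 7.39, 10.01 and 20.5 FPKM in CD/CD (-1.003 ± 0.223 SE, adjusted p = 0.0636). HNF4A and the xenobiotic receptor NR1I3 had -0.63 and -0.59. Cytochrome P450 genes of drug metabolism, many with close copies, had 4 of 8 nominally lower, 0 higher and a median of -0.43.

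Fatty acid oxidation and ketone body genes had 19 of 25 nominally lower and 0 higher, with a median log2 fold change of -0.57. This list kept more of its size than the hepatocyte markers when animals numbered above 34000 were left out, with a median of -0.40. DECR1, which reduces double bonds of unsaturated fatty acids for oxidation, had 21.3, 35.6 and 56.0 FPKM in WSD/CD and 45.1, 61.4 and 70.0 FPKM in CD/CD (-0.74 ± 0.158 SE, adjusted p = 0.0631). All 10 WSD/CD libraries lay below its CD/CD mean and 8 lay below every CD/CD library. ACADVL, the dehydrogenase for very long chains, had -0.55, HADHA, of the trifunctional protein, -0.62, and ECHS1, a hydratase, -0.94. BDH1, which makes the ketone body beta-hydroxybutyrate, had 13.5, 25.1 and 54.3 FPKM in WSD/CD and 26.6, 44.7 and 65.3 FPKM in CD/CD (-0.76 ± 0.222 SE, adjusted p = 0.0771).

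Genes of fatty acid synthesis did not stand out, with 0 of 15 nominal in either direction and a median of -0.20, which was 0.16 without animals numbered above 34000. SREBF1, a master regulator of these genes, had 2.99, 4.23 and 7.90 FPKM in WSD/CD and 2.85, 5.90 and 9.69 FPKM in CD/CD. THRSP, a lipogenic protein, had 28.2, 70.3 and 358 FPKM in WSD/CD and 41.3, 90.8 and 233 FPKM in CD/CD, so the WSD/CD range enclosed the CD/CD range. GPAM, which starts glycerolipid synthesis, reached 132 FPKM in WSD/CD, against at most 76.0 FPKM in CD/CD, while its WSD/CD median of 19.1 FPKM was below the CD/CD median of 46.7 FPKM. Cholesterol synthesis and uptake had 5 of 22 nominally lower, 0 higher and a median of -0.38, which was 0.04 without animals numbered above 34000. PMVK, of the mevalonate pathway, had 6.30, 9.22 and 13.7 FPKM in WSD/CD and 11.9, 13.7 and 16.5 FPKM in CD/CD (-0.50 ± 0.119 SE, adjusted p = 0.0636).

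Lipid droplet genes had 10 of 19 nominally lower, 1 higher and a median of -0.43, or -0.14 without animals numbered above 34000. DGAT1, which makes triglyceride, had 2.73, 4.55 and 10.1 FPKM in WSD/CD and 5.81, 8.17 and 11.4 FPKM in CD/CD (-0.64 ± 0.181 SE, adjusted p = 0.0752). PNPLA2, the triglyceride lipase of the droplet, had -0.51, and its protein inhibitor G0S2 had -0.55. The member that stood nominally higher was PLIN3, a droplet coat protein, with 3.03, 5.51 and 8.58 FPKM in WSD/CD and 2.60, 3.55 and 5.16 FPKM in CD/CD (0.47 ± 0.139 SE, adjusted p = 0.0791). Apolipoprotein and lipoprotein genes had 8 of 15 nominally lower, 0 higher and a median of -0.65, and -0.28 without animals numbered above 34000. LCAT, which esterifies cholesterol in plasma, had -0.68, and APOA5, which promotes triglyceride clearance, -0.83, while APOE had -0.65 and APOA1, the main protein of high-density lipoprotein, -0.32 (adjusted p = 0.315).

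Bile acid genes had 9 of 19 nominally lower, 0 higher and a median of -0.65, or -0.15 without animals numbered above 34000. NR0B2 (ENSMMUG00000010291), the bile acid-induced repressor SHP, had 0.771, 0.770, 1.09, 4.16, 4.99, 1.19, 1.40, 7.45, 0.835 and 4.43 FPKM in WSD/CD replicates 1 to 10. In CD/CD it had 5.24, 3.73, 10.004, 5.41, 1.99, 9.19, 5.74, 5.30, 8.76 and 6.13 FPKM (log2 fold change -1.10 ± 0.302 SE, adjusted p = 0.0748). The 6 lowest WSD/CD libraries stood below every CD/CD library, and 3 of these, replicates 1 to 3, were numbered below 34000. In the 15 libraries without animals above 34000, its log2 fold change was -1.22. SLC10A1, which takes bile acids up from blood, had -1.23 over 20 libraries and -0.49 without those animals. SLC27A5, a bile acid ligase, had -1.09, and CYP27A1, of the alternative synthesis pathway, -0.81.

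Urea cycle and amino acid genes had 12 of 24 nominally lower, 0 higher and a median of -0.60. NAGS, which makes the activator of the urea cycle's entry enzyme, had 0.950, 2.81 and 5.35 FPKM in WSD/CD and 2.94, 6.15 and 7.38 FPKM in CD/CD (-0.85 ± 0.205 SE, adjusted p = 0.0659). HAAO, of tryptophan breakdown, had -0.86, and FAH, of tyrosine breakdown, -0.61. Gluconeogenesis and glycogen genes had 8 of 18 nominally lower, 0 higher and a median of -0.55. PC, pyruvate carboxylase, had -0.56, SLC37A4, the glucose-6-phosphate carrier of the endoplasmic reticulum, -0.85, and PYGL, liver glycogen phosphorylase, -0.86. For NAGS, HAAO and PC all 10 WSD/CD libraries lay below the CD/CD mean. Without animals numbered above 34000 the medians were -0.13 for the urea list and -0.14 for the glucose list.

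Genes of protein export stood lower alongside the secreted proteins. Endoplasmic reticulum chaperones and stress genes had 12 of 21 nominally lower, 0 higher and a median of -0.48, or -0.23 without animals numbered above 34000. P4HB, a disulfide isomerase, had 67.3, 215 and 484 FPKM in WSD/CD and 304, 413 and 588 FPKM in CD/CD (log2 fold change -1.02 ± 0.317 SE, adjusted p = 0.0821), and CALR, calreticulin, had -0.58. Acute phase genes had 11 of 17 nominally lower, 0 higher and a median of -0.87, the lowest of the hepatocyte and metabolic lists, and -0.26 without animals numbered above 34000. SERPINA3 had -1.16, the fibrinogen chain FGG -0.88 and haptoglobin, HP, -0.61. Complement and coagulation genes had 22 of 30 nominally lower, 2 higher and a median of -0.69, or -0.24 without those animals. F2, prothrombin, had 255, 607 and 1176 FPKM in WSD/CD and 808, 1036 and 1234 FPKM in CD/CD (-0.74 ± 0.228 SE, adjusted p = 0.0819), and C1S, a complement protease, had -0.77. MASP1, a protease of the lectin pathway, went against the list with 33.3, 42.1 and 73.5 FPKM in WSD/CD and 24.96, 32.3 and 40.3 FPKM in CD/CD (0.47 ± 0.142 SE, adjusted p = 0.0809). It was above the CD/CD mean in all 10 WSD/CD livers, and its log2 fold change without animals numbered above 34000 was 0.53.

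**Figure D4:**
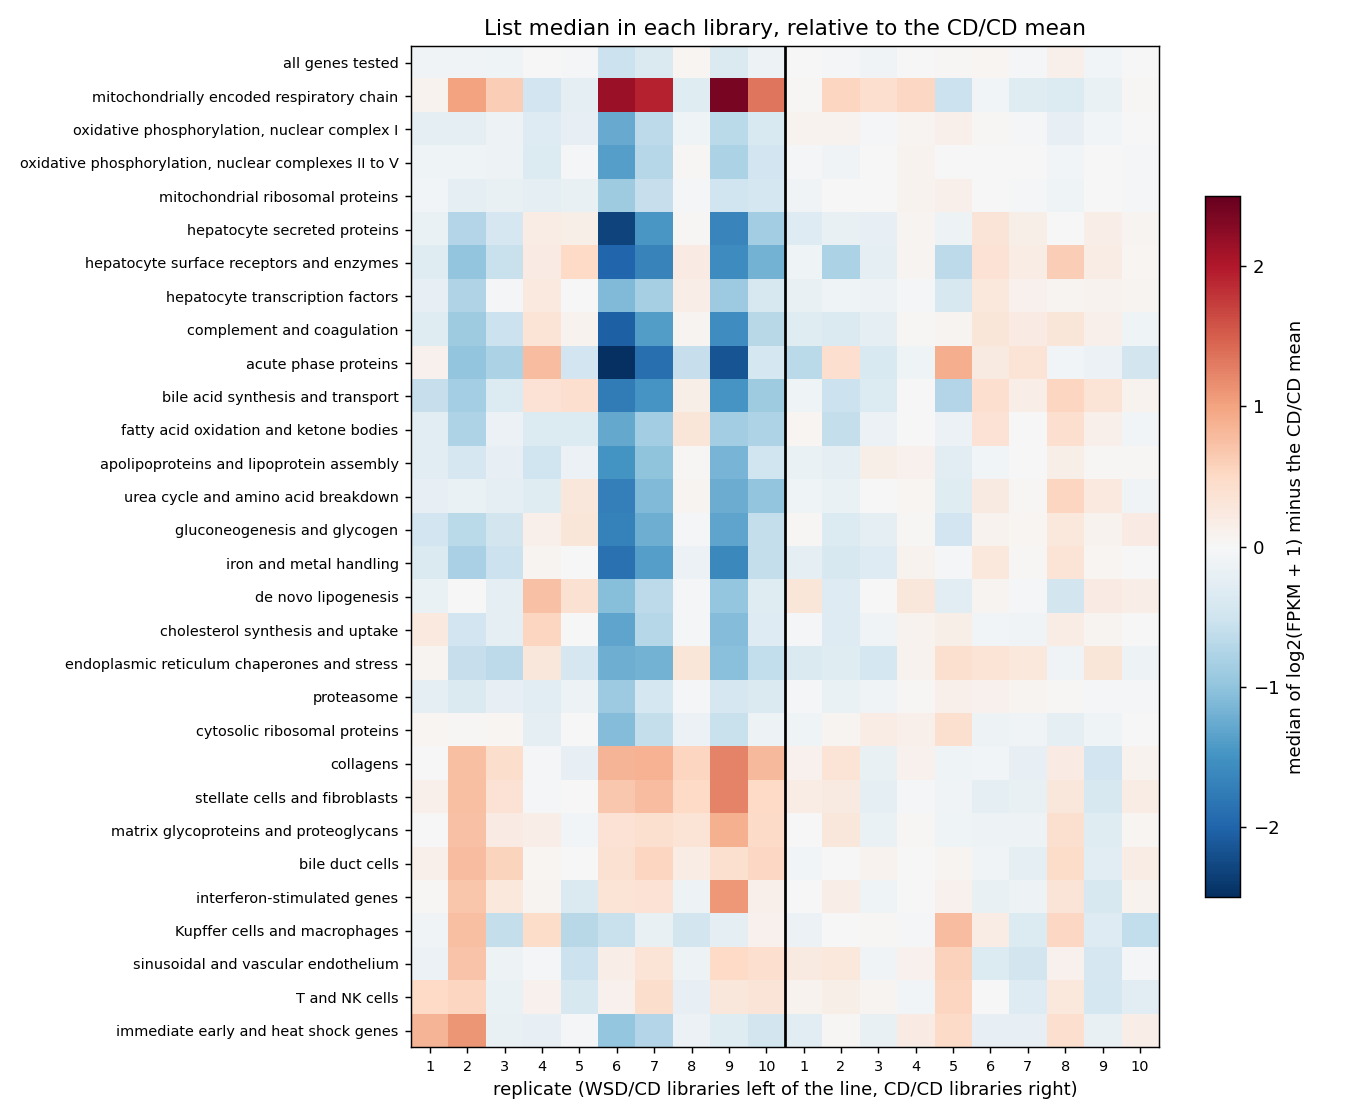
Median of log2(FPKM + 1) minus the CD/CD mean over the tested genes of each list (rows) in each library (columns), with WSD/CD libraries left of the line and CD/CD libraries right. Hepatocyte lists are lowest in WSD/CD replicates 6, 7 and 9. Collagen and stellate lists stand above every CD/CD library in WSD/CD replicates 2, 3, 6, 7, 8, 9 and 10. In WSD/CD replicates 4 and 5 the collagen list has -0.03 and -0.21, while some other rows lie further from 0.

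Collagens had 10 of 13 tested genes nominally higher and 0 lower, and their log2 fold changes had a median of 0.56, or 0.72 after median-of-ratios scaling. COL5A1, a chain of the fibrillar collagen that starts fibril assembly, had 1.13, 3.07 and 3.34 FPKM in WSD/CD and 0.872, 1.26 and 1.69 FPKM in CD/CD (0.59 ± 0.129 SE, adjusted p = 0.0631). COL3A1 (ENSMMUG00000021286), a major fibrillar collagen of scar tissue, had 4.97, 10.8, 8.80, 4.11, 2.75, 13.9, 11.7, 6.81, 18.8 and 9.29 FPKM in WSD/CD replicates 1 to 10, against 2.92, 4.28 and 5.42 FPKM (lowest, median and highest) in CD/CD (0.77 ± 0.231 SE, adjusted p = 0.0810). It was above every CD/CD library in 7 WSD/CD livers and below every one in replicate 5. COL6A3, of the beaded filaments around cells, had 0.71, and COL4A2, of basement membranes, 0.56. By library, the list's median relative to the CD/CD mean was highest in WSD/CD replicate 9 at 1.25, with 0.84, 0.88, 0.80 and 0.76 for replicates 6, 7, 10 and 2, while replicates 4 and 5 had -0.03 and -0.21. The summed level of all collagens was 346 to 653 FPKM in WSD/CD and 304 to 696 FPKM in CD/CD, and these ranges overlapped almost wholly. Among animals numbered up to 34000, the median was 0.24.

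Stellate cell and fibroblast markers had 11 of 18 nominally higher, 0 lower and a median of 0.57. Their summed level was 332, 512 and 729 FPKM in WSD/CD and 342, 421 and 550 FPKM in CD/CD. PDGFRB, the growth factor receptor of these cells, had 1.44, 3.80 and 6.78 FPKM in WSD/CD and 1.24, 1.90 and 3.00 FPKM in CD/CD (log2 fold change 0.71 ± 0.19 SE, adjusted p = 0.0721). NGFR, a nerve growth factor receptor, had 11.02, 17.1 and 29.9 FPKM in WSD/CD and 9.16, 12.8 and 16.6 FPKM in CD/CD (0.64 ± 0.18 SE, adjusted p = 0.0752). CYGB, cytoglobin, had 0.60, and DCN, the proteoglycan decorin, 0.54. WSD/CD replicates 6, 7 and 9 were the lowest for secreted hepatocyte proteins and among the highest for collagens, and the part of a different mix of cells in these results was not tested. Replicate 8 did not follow that pattern: with secreted proteins at 0.03 and a mitochondrial share of 1.98% it had medians of 0.54 for collagens and 0.50 for stellate markers, against at most 0.33 and 0.29 in CD/CD. With the animals above 34000 left out, the median was 0.30, and NGFR kept a log2 fold change of 0.64.

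Matrix glycoproteins and proteoglycans had 12 of 27 nominally higher, 2 lower and a median of 0.37, or 0.12 without animals numbered above 34000. Their summed level was 426, 631 and 958 FPKM (lowest, median and highest) in WSD/CD and 596, 729 and 856 FPKM in CD/CD. The median of this sum was thus lower in WSD/CD, unlike the list's median log2 fold change. ASPN, asporin, had 4.09, 5.73 and 12.1 FPKM in WSD/CD and 2.37, 3.85 and 6.21 FPKM in CD/CD, above the CD/CD mean in all 10 WSD/CD livers (log2 fold change 0.62 ± 0.16 SE, adjusted p = 0.0721). TNC, tenascin C, had 0.839, 1.58 and 3.35 FPKM in WSD/CD and 0.432, 0.690 and 1.70 FPKM in CD/CD (0.52 ± 0.144 SE, adjusted p = 0.0752). THBS2, thrombospondin 2, had 0.55 and LTBP4, which binds latent TGF-beta, 0.54. The members that went the other way were EMILIN1, an elastic fibre protein, at -0.64, and LTBP2 at -0.46. Matrix proteases, inhibitors and crosslinkers had 6 of 16 nominally higher, 1 lower and a median of 0.28, or 0.21 without those animals, among them SERPINH1, the collagen chaperone, at 0.71 and the gelatinase MMP2 at 0.32. TGF-beta ligands, receptors and targets had 3 of 20 nominally higher, 1 lower and a median of 0.12, which was 0.01 without animals numbered above 34000.

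Bile duct markers had 4 of 7 nominally higher, 0 lower and a median of 0.35, which was also 0.35 without animals numbered above 34000. SPP1 (ENSMMUG00000008793), osteopontin, had 1.52, 6.37, 3.33, 1.47, 1.61, 2.02, 2.42, 1.48, 3.12 and 2.31 FPKM in WSD/CD replicates 1 to 10, against 0.751, 1.29 and 2.30 FPKM in CD/CD (log2 fold change 0.54 ± 0.174 SE, adjusted p = 0.0885). All 10 WSD/CD livers were above the CD/CD mean. SOX9, a transcription factor of duct cells, had 0.40. The list's summed level was 15.4 to 34.8 FPKM in WSD/CD and 11.6 to 23.3 FPKM in CD/CD.

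Immune and vessel markers differed from list to list. Macrophage markers had 0 of 13 nominally higher and 1 lower, with a median of -0.17 that became 0.02 after median-of-ratios scaling and 0.16 after quantile normalization, and a summed level of 286 to 796 FPKM in WSD/CD and 421 to 961 FPKM in CD/CD. CD14, a receptor for bacterial lipopolysaccharide, was the nominal gene, with 28.7, 75.2 and 100.4 FPKM in WSD/CD and 80.3, 95.2 and 167 FPKM in CD/CD (-0.57 ± 0.201 SE, adjusted p = 0.1002). Endothelial markers had 0 of 15 in either direction, with TEK, the angiopoietin receptor, at 0.26 (adjusted p = 0.255). T and NK cell markers had 3 of 14 nominally higher and 0 lower, with TRAC, the T cell receptor alpha constant gene, at 0.58 and the cytokine receptor IL7R at 0.47, and without animals numbered above 34000 it had 0 in either direction. B and plasma cell markers had 1 of 5 nominally lower and 0 higher. Of the neutrophil markers MPO and S100A12 were at 0 in all 20 libraries, and 0 of the 4 tested were nominal. Cell cycle genes had 2 of 15 nominally higher and 1 lower, with a median of 0.07.

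Interferon-stimulated genes had 10 of 24 nominally higher, 2 lower and a median of 0.32. MX1 (ENSMMUG00000015329), an antiviral GTPase, had 3.77, 22.5, 12.1, 8.16, 5.53, 20.4, 9.55, 4.44, 43.6 and 7.11 FPKM in WSD/CD replicates 1 to 10, against a lowest, median and highest of 1.98, 4.75 and 10.4 FPKM in CD/CD (log2 fold change 0.96 ± 0.34 SE, adjusted p = 0.103). Replicates 2, 3, 6 and 9 were above every CD/CD library. OAS2, which makes a second messenger against viral RNA, had 0.55 and IFI27 had 0.62, while BST2, which tethers virus particles to the cell, had -0.53. The list's summed level was 192, 261 and 418 FPKM (lowest, median and highest) in WSD/CD and 239, 282 and 347 FPKM in CD/CD. The median of this sum was thus lower in WSD/CD, unlike the list's median log2 fold change. In the 15 libraries without animals above 34000, the median was 0.23. Antigen presentation had 0 of 11 nominal in either direction, with B2M, the light chain of class I molecules, at 0.32 (adjusted p = 0.370).

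Proteasome genes had 16 of 29 nominally lower, 0 higher and a median of -0.33, and their list median was below every CD/CD liver in 8 WSD/CD livers and at -0.06 or lower, relative to the CD/CD mean, in all 10. For the median of all genes tested, 5 WSD/CD livers were below every CD/CD liver. PSMB3 and PSMB4, core subunits, had -0.64 and -0.47. The proteasome list's median log2 fold change was -0.20 without animals numbered above 34000 and -0.16 after median-of-ratios scaling. Cytosolic ribosomal proteins had 10 of 37 nominally lower, 0 higher and a median of -0.24, which was -0.02 without animals numbered above 34000, and RPL6 had -0.66. Antioxidant genes had 9 of 21 nominally lower and 0 higher, with PRDX5, a peroxidase, at -0.76 and GPX1, a selenium-dependent peroxidase, at -1.01 over all 20 libraries and -0.24 without animals numbered above 34000. Iron and metal genes had 9 of 17 nominally lower, 0 higher and a median of -0.61, or -0.27 without those animals. Among them were the iron carrier SLC11A2 at -0.73, the zinc and iron carrier SLC39A14 at -1.005, ferritin light chain FTL at -0.59 and transferrin, TF, at -0.94 (adjusted p = 0.137).

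Growth, clock and zonation genes varied singly. The growth hormone and IGF list had 2 of 17 nominally higher and 2 lower, and its median of -0.16 was 0.03 after median-of-ratios scaling. IGFBP3, the main plasma carrier of IGFs, had 445, 899 and 2145 FPKM in WSD/CD and 391, 561 and 707 FPKM in CD/CD (log2 fold change 0.65 ± 0.24 SE, adjusted p = 0.110), and IGFBP4, another IGF-binding protein, had 77.6, 327 and 508 FPKM in WSD/CD and 366, 468 and 551 FPKM in CD/CD (-0.90 ± 0.277 SE, adjusted p = 0.0811). Fetal liver and imprinted genes had 2 of 11 nominally higher and 1 lower: besides DLK1, PLAGL1, an imprinted zinc finger gene, had 0.47, and AFP, alpha-fetoprotein, had -0.66. Clock genes had 5 of 15 nominally lower, 0 higher and a median of -0.26, against 1 lower, 2 higher and -0.02 without animals numbered above 34000, with TEF, an output factor of the clock, at -0.70 and the repressor CIART at -0.43. Wnt and pericentral genes had 1 of 16 nominally higher and 1 lower, with 13 of 16 log2 fold changes negative and a median of -0.23. RSPO3, the endothelial Wnt amplifier of the central vein, was nominally higher with 3.17, 8.07 and 16.4 FPKM in WSD/CD and 3.06, 4.10 and 5.54 FPKM in CD/CD (0.70 ± 0.216 SE, adjusted p = 0.0811), and GLUL, the glutamine synthetase of pericentral hepatocytes, had -0.41 (adjusted p = 0.288). Immediate-early and heat shock genes had 0 of 19 nominally higher and 1 lower, with DNAJB1, a cochaperone, at -0.72. The list's median of -0.07 was 0.11 after median-of-ratios scaling and 1.13 within number range 30, where the 2 WSD/CD livers, replicates 1 and 2, stood at 0.85 and 1.11 relative to the CD/CD mean.

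Fold changes were next set side by side with and without the 5 WSD/CD animals numbered above 34000. Genes at an unadjusted p under 0.05 numbered 219 higher (1.77%) and 723 lower (5.85%) without them. In number ranges 30 and 33, where both groups had animals, 332 were higher (2.69%) and 965 lower (7.81%) with the range as a term. For GAMT the log2 fold change was -0.82 over all 20 libraries, -0.51 without these animals and -0.50 in the fit to both ranges. For PSMB2 it was -0.78, -0.68 and -0.72, and for MT1X it was -1.31, -1.15 and -1.06. For ND2 it was 1.15, 0.37 and 0.32, and for SERPINA1 -0.96, -0.28 and -0.29. PSMB2 and MT1X thus kept more of their size in these fits than ND2 and SERPINA1, although MT1X had -0.32 within range 30 and -1.59 within range 33. The transcription factor SALL1 (ENSMMUG00000017200), named after its values were seen, was the gene called without these animals. It had a lowest, median and highest of 5.46, 16.7 and 26.6 FPKM in WSD/CD and 10.9, 13.1 and 15.2 FPKM in CD/CD. Its log2 fold change was 0.06 (adjusted p = 0.878) over all 20 libraries, 0.72 (adjusted p = 0.0377) without animals above 34000 and 0.71 (adjusted p = 0.0660) in both ranges. In WSD/CD 5 libraries, replicates 1 to 5, stood above every CD/CD library and 3 stood below every one.

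**Figure D5:**
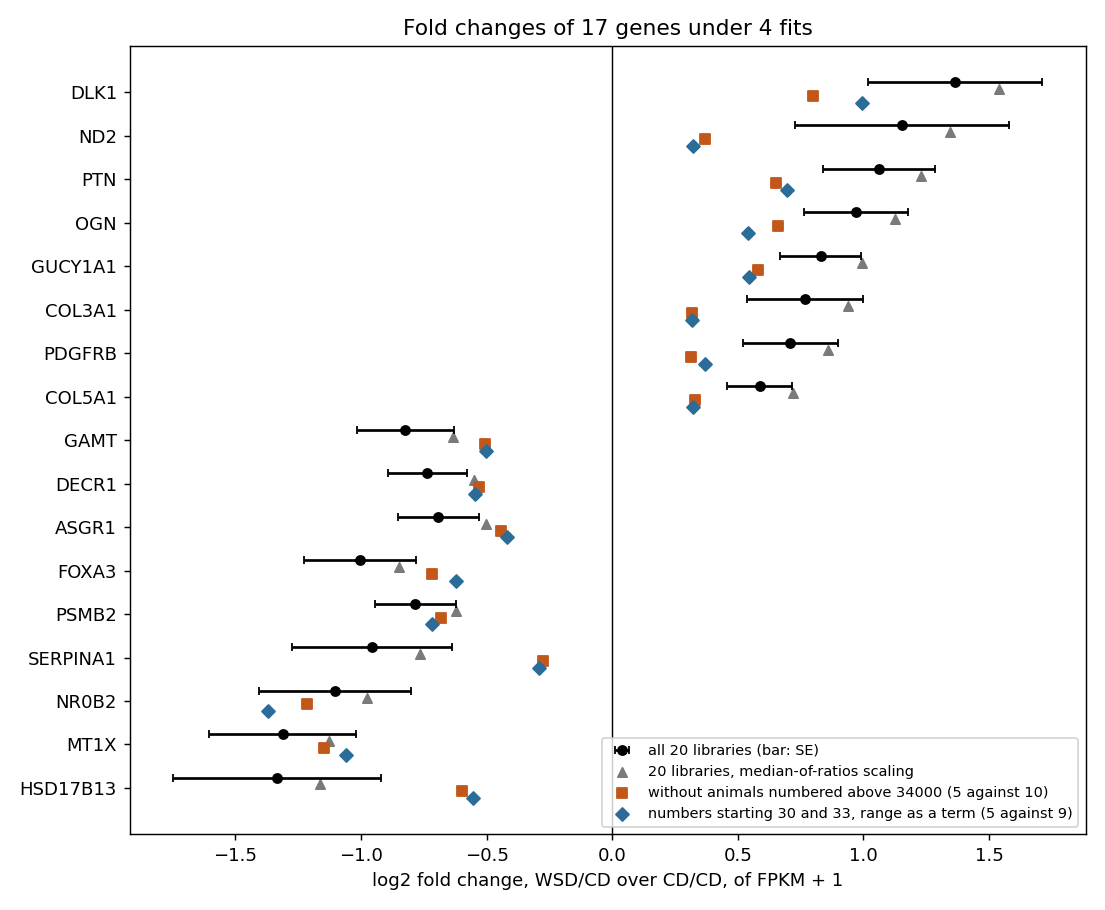
log2 fold changes of FPKM + 1 (WSD/CD over CD/CD) of 17 genes under 4 fits, with the SE as a bar for the fit to all 20 libraries. The points of PSMB2 and MT1X lie close together, while those of ND2, SERPINA1 and HSD17B13 without animals numbered above 34000 lie nearer to 0.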

How the data were processed

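Per the labels' protocols, liver RNA was prepared with Qiagen's RNeasy Mini kit and sequenced as directional mRNA libraries. GSNAP, SAMtools and Cufflinks are named in the submitters' processing notes. The build and the tools' settings were not given in these sources. The table that the authors deposited holds FPKM values of 34882 genes in 33 libraries, matched to samples by the animal number in column and title. A placeholder that stood for a missing value in 15 genes, ALB among them, was treated as missing and those genes were not tested. Symbols came from the table for 20343 genes and from Ensembl identifiers for 4020 more. The table gives no read counts, so its depth is unknown beyond a rough ratio.

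The test was limma's (version 3.58.1, R 4.3.3) on log2(FPKM + 1) (intensity trend, Benjamini-Hochberg adjustment over all 12362 genes with a mean of at least 0.5 FPKM, threshold 0.05, 18 residual degrees of freedom), on the 20 libraries of both groups, because WSD/CD had a wider spread than the other diet groups. Fold changes on this scale understate low genes. The mitochondrial share was compared by permutation. On simulated data the test found 85 of 100 genes at a log2 change of 1 and 100 of 100 at 2. Whether such rates hold for the 20 livers was not tested. In limma's fit to them DLK1 and MT1X had log2 fold changes of 1.37 and -1.31. Their adjusted p of 0.0700 and 0.0636 in that fit did not pass the threshold.

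The comparison, the 47 gene lists, the tests and the rule for named genes were chosen with earlier results of these data known. Named genes are the 12 smallest p in each direction, the largest nominal differences, the leading and most abundant members of each list, genes without overlap, and DLK1, HSD17B13, ND2 and COL3A1. The text names a subset of them, and some are not reported here. Alternatives were other scalings, filters, pseudocounts, variance models and covariates, the 33-library fit, number ranges, and leaving out each library.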

Additional observations from a re-analysis of the deposited data

Results flagged for a closer look

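Within each group of 10 libraries, the highest and lowest library of each gene named here and of each list were checked for a gap to the other libraries, by Dixon's criterion. Of 358 groups checked 14 stood out, and chance alone gives about 1 group in 20. Levels are log2(FPKM + 1).

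In WSD/CD, replicate 6 stood alone at the low end of HINT1 (5.92, or 59.5 FPKM), of nuclear complex I (a list median of -1.26 relative to the CD/CD mean) and of the proteasome (-0.90). Replicate 8 stood alone at the high end of ACADVL (5.23, or 36.5 FPKM). Replicate 2 stood alone at the high end of SPP1 (2.88, or 6.37 FPKM) and of the B and plasma cell list (0.61).

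In CD/CD, replicate 8 stood alone at the high end of GUCY1A1 (2.66, or 5.30 FPKM), CAVIN1 (4.29, or 18.5 FPKM), NR1I3 (2.96, or 6.79 FPKM) and TEK (2.38, or 4.21 FPKM). Replicate 5 stood alone at the high end of AIFM2 (3.87, or 13.7 FPKM), FOXA3 (4.43, or 20.5 FPKM) and NDUFS3 (6.17, or 71.1 FPKM). Replicate 2 stood alone at the low end of the cholesterol list (-0.32).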

How the results depend on the processing

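No paired analysis was possible because the labels give no pairing of animals between the groups. The replicate numbers used here follow the order of animal numbers within each group and are not from the labels. Genes at an adjusted p under 0.05 numbered 0 of 12362 in limma's fit to the 20 libraries (3293 at an unadjusted p under 0.05). They numbered 39 after median-of-ratios scaling, 1217 with all 33 libraries, 1376 with sample weights and 1 without animals numbered above 34000. Within number range 30 there were 98 (80 higher and 18 lower), within range 33 there were 2, and with 1 library left out 0 to 874. They numbered 0 with no filter on low values (21183 genes), a pseudocount of 0.1, a mean of at least 2 FPKM (9004 genes), quantile normalization, rescaling without mitochondrial transcripts, a robust variance prior, and the Y-linked level, the mitochondrial share or ranges 30 and 33 as terms. Those at an unadjusted p under 0.05 numbered 684 with the mitochondrial share as a covariate, 942 without animals above 34000, 1297 in ranges 30 and 33, 2144 within range 30, 619 within range 33, and 2355 to 4060 with 1 library left out. Genes without overlap numbered 26 of 12362 without animals above 34000, and 9 to 21 with 1 library left out. Within range 30 (2 against 4 libraries) they numbered 3351, and within range 33 (3 against 5) 492. With so few libraries, a gene without a group difference separates fully by chance with a probability of 0.133 in range 30. In range 33 that probability is 0.0357, so neither count is read as a result. The difference in mitochondrial share was 1.32 points without animals above 34000, 1.86 within range 30, 0.85 within range 33, 1.27 in both ranges, and 3.78 to 5.41 with 1 library left out; no permutation p in the number-range fits was under 0.05, and range 30 alone could not give one under 0.133. The causes were not tested.

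Most named genes kept their direction. Within range 33 the log2 fold change turned to -0.017 for THBS2, 0.13 for EMILIN1, 0.058 for AFP, 0.52 for GPAM, 0.42 for GLUL, 0.30 for SREBF1 and 1.13 for THRSP. Within range 30 it turned to 0.0055 for PNPLA2, 0.081 for CD14 and 0.14 for APOA1. With the mitochondrial share as a covariate it turned to 0.019 for TF, 0.11 for GPAM and 0.58 for THRSP, and in ranges 30 and 33 to 0.073 for SREBF1 and 0.25 for THRSP. THRSP also turned to 0.11 after quantile normalization and 0.41 without animals above 34000. List medians turned, once the mitochondrial share was a covariate, to 0.12 for hepatocyte transcription factors, 0.17 for de novo lipogenesis, 0.14 for cholesterol, 0.018 for endoplasmic reticulum genes, 0.0036 for complement, 0.065 for the clock, 0.12 for growth hormone and IGF and 0.10 for immediate early genes, and to -0.0017 for the mitochondrial genome, -0.084 for endothelium, -0.015 for T and NK cells and -0.011 for fetal genes. Fold changes of low genes are understated on this scale.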
